A study of Mus musculus with 4 samples.

Results

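The SR and hnRNP genes are the named families of RNA-binding proteins that steer the choice of exons. They were taken as every gene of the deposited table whose symbol is Srsf followed by a number or begins with Hnrnp. This rule gave 31 of the 16051 genes listed, 11 SR genes and 20 hnRNP genes. Differentiated 3T3-L1 cells, a mouse embryonic fibroblast line that can be turned into adipocytes in culture with isobutyl-methylxanthine, dexamethasone and insulin, were treated for 48 h with DMSO, the vehicle, or with 100 μM risperidone, an antipsychotic drug. Each treatment has 2 mRNA sequencing libraries, for which the RNA of 3 cultures was combined. The labels name the control cells as untreated, give embryo as the tissue and describe an extraction from retinas, whereas the study's methods describe DMSO and a cell line and do not mention retina. P-values measure the spread between these pooled libraries only, not between single cultures.

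An SR protein binds short motifs in exons through its RNA recognition domain and draws the splicing machinery to the neighbouring splice sites through a tail rich in serine and arginine. The hnRNPs coat new transcripts and often act the other way, masking splice sites or exons, and many of them also take part in export, stability and translation of mRNA. Genes of both families are known to limit their own output by splicing in an exon that sends the transcript to nonsense-mediated decay. In fat cells, splicing factors of these families act on transcripts of differentiation and of insulin signalling.

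The libraries held between 15883712 and 16374119 counts, so that a gene at 0 may still have had up to 3, between 0.183 and 0.189 CPM (counting error only). Of the 31 genes, 30 reached the mean of at least 1 FPKM (fragments per kilobase of transcript, scaled to the depth of the library) needed for the test, and all 30 were also above 5 FPKM. Srsf12, a splicing repressor, had 1, 0, 0 and 1 counts in the 4 libraries and was not tested. The label of adipocytes was only partly borne out by the markers. Of 14 adipocyte genes 5 were tested. The 9 others, among them adiponectin (Adipoq), perilipin (Plin1) and Cebpa, had at most 14 counts in any library. With DMSO the 5 stood at 234 and 250 FPKM (Lpl), 130 and 169 (Fabp4), 44.5 and 44.5 (Plin4), 12.5 and 11.4 (Pparg) and 1.21 and 1.14 (Cd36). Of them 3 were called lower, Fabp4 (log2 fold change -1.085), Plin4 (-0.75) and Lpl (-0.243), and none higher. Of all tested genes 32.2% were called lower and 32.1% higher. The fibroblast list summed to between 2915 and 3118 FPKM in the 4 libraries. Within the fibroblast list 3 of 8 genes rose and 2 fell, against 32.1% and 32.2% of all tested genes. Those that rose were Dlk1 (log2 fold change 1.52), Thy1 (1.05) and Col1a1 (0.99). Those that fell were Col3a1 (-0.96) and Col1a2 (-0.16), and the part of these genes in the results was not tested. The adipocyte list summed to 423 and 477 FPKM with DMSO and to 288 and 305 FPKM with risperidone, and its part in the results was not tested. Retina genes summed to 1.28 FPKM or less, and macrophage genes to 2.87 and 4.1 FPKM with DMSO and to 6.71 and 7.1 FPKM with risperidone. That last sum was nearly all Cd68 (2.64 and 3.5 FPKM with DMSO, 6.34 and 6.7 FPKM with risperidone), while Ptprc and Csf1r stood at 0.09 FPKM or less. A list of 12 kidney tubule genes summed to between 1.83 and 3.02 FPKM in 3 libraries and to 214 FPKM in risperidone replicate 2, so counts are also given without that library.

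Most genes of both families were lower with risperidone. By edgeR's quasi-likelihood test at a Benjamini-Hochberg adjusted p under 0.05, 20 of the 30 tested genes fell and 5 rose, against 32.2% of all 10243 tested genes that fell and 32.1% that rose. The median log2 fold change of risperidone over DMSO was -0.30 for the 30 genes and 0.00 for all genes tested. Without risperidone replicate 2 the counts were again 20 lower and 5 higher, against 32.7% and 32.3% of all genes. Larger changes were counted separately. A fall of at least 0.5 on the log2 scale was called for 11 genes (15.3% of all genes tested), and a fall of at least 1 for 6 (3.91% of all genes tested). The rises of at least 0.5 were those of Srsf5 and Hnrnpc (12.4% of all genes tested), and no gene of either family rose by 1 or more (2.61% of all genes tested). In TMM-scaled CPM the libraries of the 2 treatments did not overlap for 22 genes that were lower and 6 that were higher, where 41.7% and 41.2% of all genes did so. DESeq2 called 19 lower and 4 higher, against 25.9% and 25.8%. On TPM (abundance per length, with an equal total for every library) the log2 fold changes of all genes shifted to a median of -0.22, and limma then called 24 of the 30 genes lower and 2 higher, against 51.7% and 15.0% of all genes. In these bulk libraries, fewer cells of a type and less RNA per cell cannot be told apart.

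**Figure D1:**
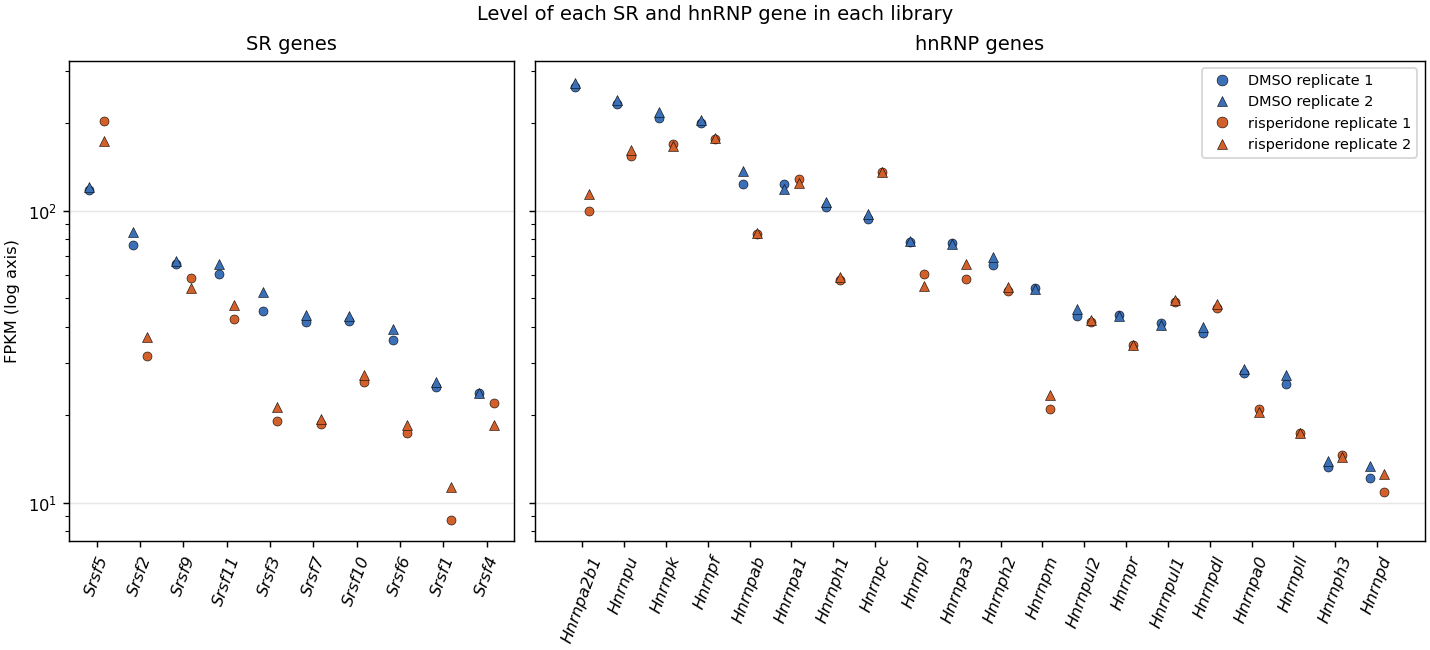
Level of each tested SR gene (left) and hnRNP gene (right) in FPKM on a log axis, with 1 symbol per library (blue DMSO, orange risperidone, circles replicate 1, triangles replicate 2), ordered by the DMSO mean. For Srsf1, Srsf2, Srsf3, Srsf6 and Srsf7 the orange symbols lie well below the blue ones, whereas for Srsf5 and Hnrnpc they lie above.

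The upstream sequence of a gene that fell and of one that rose is shown for each family, since these genes carry the opposite directions. The 250 bases before the annotated start were read from RefSeq (GRCm38.p6), 5′ to 3′ on the strand of the gene. Capitals mark exact matches on either strand to the TATA box in the form TATAAA, the CCAAT box, the GC box in the form GGGCGG, the E-box in the form CACGTG, or an ETS site in the form CCGGAAG. Srsf1 (chr11:88047123-88047372, plus strand) had the largest fall of the SR genes in 12 of the 16 other settings as well as in the reported test (Srsf3 in the others), and this start lies inside the range that RefSeq gives the gene (chr11:88046499-88053757). Srsf5 (chr12:80945249-80945498, plus strand) had the largest rise, and its window ends just inside the RefSeq range of the gene (chr12:80945495-80950507). Hnrnpab (chr11:51606882-51607131, minus strand) had the largest fall among the hnRNP genes whose window has at most 30 bases in an annotated untranslated region, which left out Hnrnpm, Hnrnpa2b1 and Hnrnph1, and Hnrnpc (chr14:52104022-52104271, minus strand) had the largest rise. The Hnrnpc window also ends just inside the RefSeq range of its gene (chr14:52073377-52104039).
Srsf1: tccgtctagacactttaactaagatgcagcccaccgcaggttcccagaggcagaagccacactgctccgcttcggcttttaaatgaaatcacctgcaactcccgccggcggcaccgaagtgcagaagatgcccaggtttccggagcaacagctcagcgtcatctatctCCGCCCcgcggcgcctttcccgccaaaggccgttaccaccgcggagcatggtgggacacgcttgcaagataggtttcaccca
Srsf5: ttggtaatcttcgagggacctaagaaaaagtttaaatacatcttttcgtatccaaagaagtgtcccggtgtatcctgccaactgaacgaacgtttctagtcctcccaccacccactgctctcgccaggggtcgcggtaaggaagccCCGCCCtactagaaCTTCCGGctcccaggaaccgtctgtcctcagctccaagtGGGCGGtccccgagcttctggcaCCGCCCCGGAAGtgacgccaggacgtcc
Hnrnpab: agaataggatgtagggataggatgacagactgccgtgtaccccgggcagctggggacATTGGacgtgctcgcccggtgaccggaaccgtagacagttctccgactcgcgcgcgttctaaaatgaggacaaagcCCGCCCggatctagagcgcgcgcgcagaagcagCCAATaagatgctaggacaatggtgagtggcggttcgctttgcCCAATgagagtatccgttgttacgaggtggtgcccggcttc
Hnrnpc: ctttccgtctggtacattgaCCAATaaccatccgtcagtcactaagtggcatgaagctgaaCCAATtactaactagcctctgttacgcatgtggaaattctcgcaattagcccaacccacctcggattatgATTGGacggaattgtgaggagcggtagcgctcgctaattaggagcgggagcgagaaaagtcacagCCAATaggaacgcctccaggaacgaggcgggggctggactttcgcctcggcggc
The Srsf1 window holds 1 GC box. The Srsf5 window holds 3 GC boxes and 2 ETS matches, and the GC box and the ETS match nearest to the start share 1 base. The Hnrnpab window holds 3 CCAAT matches and 1 GC box, and the Hnrnpc window holds 4 CCAAT matches. Windows were present for 29 of the 31 genes (41 windows), so genes with several starts count more than 1 time. The set of all 32851 windows of the same length was not limited to genes expressed in these cells. GGGCGG was found in 80.5% of the 41 windows, against 32.7% of all windows. CCGGAAG was found in 22.0% against 6.9%, CCAAT in 48.8% against 33.8%, TATAAA in 7.3% against 12.4% and CACGTG in 7.3% against 6.0%. The windows of the families were also richer in G and C, with a median of 68.0% against 52.4%, and in CpG, with a median of 23 against 6. A match describes the letters and does not show that a factor binds there, and genes of both directions had matches.

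Among the SR genes, 7 of the 10 tested fell, 1 rose and 2 did not pass the test (32.2% of all genes fell and 32.1% rose), with a median log2 fold change of -0.79. Srsf1, the prototype that binds exonic enhancers and acts in many constitutive and alternative splicing events, stood at 25.0 and 25.8 FPKM with DMSO and at 8.75 and 11.3 FPKM with risperidone. Srsf3, the smallest SR protein, which also helps mRNA leave the nucleus, stood at 45.4 and 52.8 FPKM with DMSO and at 19.1 and 21.3 FPKM with risperidone. Srsf7, a close relative of Srsf3 with a zinc knuckle and a role as an export adaptor, stood at 41.5 and 43.9 FPKM with DMSO and at 18.6 and 19.3 FPKM with risperidone. In all 3 genes every risperidone library lay below every DMSO library, by far more than the replicates differed. In TMM-scaled CPM 41.7% of all genes were lower without overlap. The log2 fold change was -1.25 ± 0.0888 (SE, 2 libraries per treatment, adjusted p = 6.57e-07 by edgeR's quasi-likelihood test) for Srsf1. It was -1.19 ± 0.0806 for Srsf3 (adjusted p = 4.84e-07) and -1.09 ± 0.0638 for Srsf7 (adjusted p = 1.81e-07).

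Srsf2, whose protein marks nuclear speckles and which overlaps the gene Mfsd11, stood at 76.2 and 84.7 FPKM with DMSO and at 31.7 and 36.9 FPKM with risperidone. Srsf6, another enhancer-binding SR protein, stood at 35.9 and 39.3 FPKM with DMSO and at 17.3 and 18.5 FPKM with risperidone. Srsf10, which represses splicing when dephosphorylated and is known for a role in preadipocyte differentiation, stood at 41.8 and 43.7 FPKM with DMSO and at 26.0 and 27.5 FPKM with risperidone. These genes were again lower in both risperidone libraries, with no overlap, as were 41.7% of all genes in TMM-scaled CPM. Srsf2 fell by 1.04 ± 0.0642 on the log2 scale (adjusted p = 2.65e-07), Srsf6 by 0.98 ± 0.061 (adjusted p = 2.85e-07) and Srsf10 by 0.61 ± 0.0537 (adjusted p = 3.14e-06). Srsf11, an SR-related protein that interacts with the U2 auxiliary factor, fell less, by 0.41 ± 0.0574 on the log2 scale (adjusted p = 9.39e-05).

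Srsf5 moved in the other direction. Srsf5, an SR protein known for insulin-responsive splicing of protein kinase C beta, stood at 118 and 121 FPKM with DMSO and at 202 and 173 FPKM with risperidone. It was the most abundant SR transcript in all 4 libraries, and both risperidone libraries were above both DMSO libraries. The fold change was 1.72, or 0.78 ± 0.0684 on the log2 scale (adjusted p = 2.96e-06). Without risperidone replicate 1 the log2 fold change was 0.66, and without risperidone replicate 2 it was 0.89.

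Srsf4 and Srsf9 did not pass the test. Srsf4, the longest SR protein of the classical group, whose gene overlaps Gm12992, stood at 23.8 and 23.7 FPKM with DMSO and at 22.0 and 18.4 FPKM with risperidone. Srsf9, a short SR protein whose gene overlaps Gatc, stood at 65.5 and 67.4 FPKM with DMSO and at 58.6 and 54.2 FPKM with risperidone. The risperidone libraries were the lower ones in both genes, but by little. The log2 fold change was -0.15 ± 0.0831 (adjusted p = 0.133) for Srsf4 and -0.14 ± 0.0659 (adjusted p = 0.0924) for Srsf9. Without risperidone replicate 1 both were called lower, at -0.29 (adjusted p = 0.00274) and -0.20 (adjusted p = 0.0157), and without risperidone replicate 2 they were at -0.024 and -0.077 and not called. Of the 16 other settings, 7 called Srsf4 lower and 8 called Srsf9 lower.

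**Figure D2:**
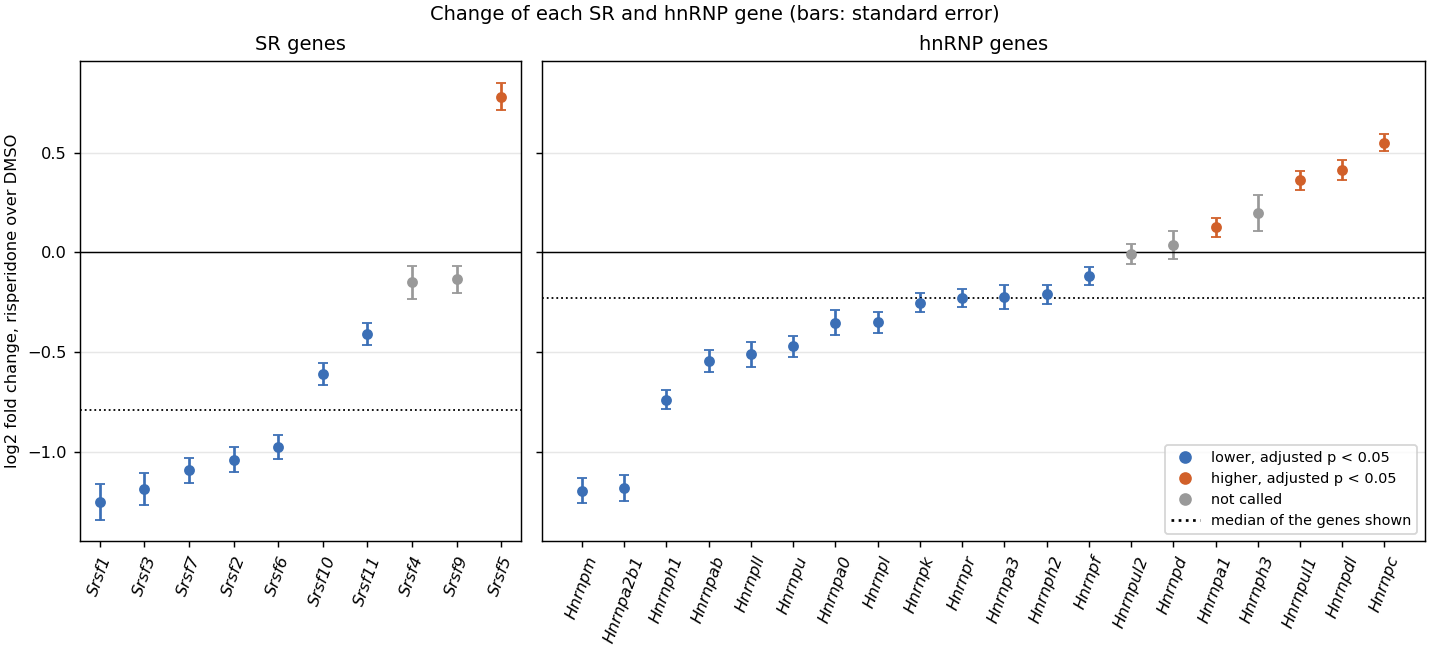
Log2 fold change of risperidone over DMSO for each tested SR gene (left) and hnRNP gene (right), with its standard error, from edgeR on 2 libraries per treatment. Blue points fell and orange points rose at an adjusted p under 0.05, grey points were not called, and the dotted lines mark the medians of -0.79 and -0.23.

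With Srsf5 higher and most of its relatives lower, the make-up of the SR transcripts shifted. Srsf5 made up 22.1% and 21.3% of the summed SR FPKM in the DMSO libraries and 45.3% and 40.5% in the risperidone libraries. Srsf2 went from 14.3% and 14.9% to 7.1% and 8.61%, and from place 2 to place 4 among the SR genes by FPKM. Srsf9 kept a share between 11.9% and 13.1% in the 4 libraries. The sum of all SR genes was 534 and 568 FPKM with DMSO and 447 and 428 FPKM with risperidone, a log2 ratio of -0.33. Without Srsf5 the sums were 416 and 447 FPKM with DMSO against 245 and 255 FPKM with risperidone, a log2 ratio of -0.79. The SD between replicates was 24.2 FPKM with DMSO and 13.1 FPKM with risperidone for the sum of all SR genes. With 2 libraries per treatment an exact permutation test of a single sum cannot go below p = 0.333, and the sums of both families are given as a description.

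**Figure D3:**
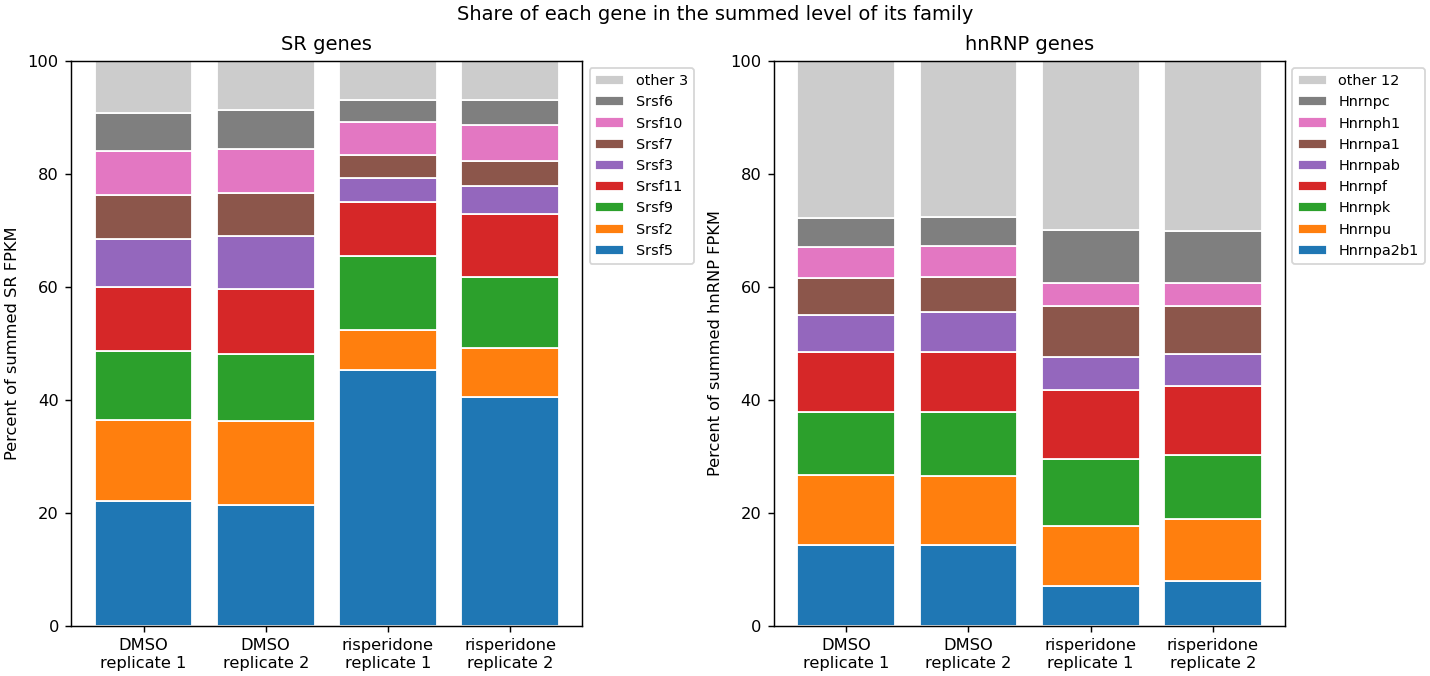
Percent of the summed FPKM of the SR genes (left) and of the hnRNP genes (right) that each gene made up, 1 bar per library, with the 8 most abundant genes in colour and the others in light grey. The bottom segment on the left is Srsf5, which grew from 22.1% and 21.3% to 45.3% and 40.5%, and the bottom segment on the right is Hnrnpa2b1, which shrank from 14.2% in both DMSO libraries to 6.94% and 7.81%.

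Among the 20 hnRNP genes, all of them tested, 13 fell, 4 rose and 3 did not pass the test (32.2% of all genes fell and 32.1% rose), with a median log2 fold change of -0.23. The A/B group, proteins with paired RNA recognition motifs and a glycine-rich tail, had 4 genes that fell and 1 that rose. Hnrnpa2b1 (chr6:51460434-51470048), which binds pre-mRNA and sorts some RNAs for transport, stood at 265 and 274 FPKM with DMSO and at 99.3 and 114 FPKM with risperidone. Hnrnpab stood at 124 and 137 FPKM with DMSO and at 83.0 and 83.6 FPKM with risperidone. Both genes were lower with no overlap between treatments, as were 41.7% of all genes in TMM-scaled CPM. Hnrnpa2b1 went from place 1 to place 6 among the hnRNP genes by FPKM. The log2 fold change was -1.18 ± 0.0649 (adjusted p = 1.31e-07) for Hnrnpa2b1 and -0.55 ± 0.0543 (adjusted p = 7.88e-06) for Hnrnpab. Hnrnpa0, a minor relative that binds AU-rich elements, fell by 0.35 ± 0.0624 (adjusted p = 0.000489) and Hnrnpa3, which is close to Hnrnpa2b1 in sequence, by 0.23 ± 0.0618 (adjusted p = 0.00811), both on the log2 scale. Hnrnpa3 was at -0.13 without risperidone replicate 1 and at -0.33 without risperidone replicate 2.

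Hnrnpa1, the classic splicing repressor that opposes Srsf1, moved little. Hnrnpa1 stood at 123 and 119 FPKM with DMSO and at 129 and 125 FPKM with risperidone. The risperidone libraries were slightly the higher ones. Its log2 fold change was 0.13 ± 0.047 (adjusted p = 0.0353), a call lost in 12 of the 16 other settings, and on TPM it was -0.075 against the shift of -0.22 for all genes.

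Hnrnpc rose. Hnrnpc (chr14:52073377-52104039), which binds runs of uridine and competes with the U2 auxiliary factor for them, stood at 93.5 and 97.3 FPKM with DMSO and at 135 FPKM in both risperidone libraries. The treatments were well apart, and Hnrnpc went from place 8 to place 4 among the hnRNP genes. It rose by 0.55 ± 0.0446 on the log2 scale (adjusted p = 1.68e-06). Its share of the summed hnRNP FPKM went from 5.0% and 5.05% to 9.46% and 9.28%.

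The D group binds AU-rich elements and acts in mRNA decay. Hnrnpdl stood at 37.9 and 40.1 FPKM with DMSO and at 46.5 and 47.9 FPKM with risperidone. Hnrnpd, also known as Auf1, stood at 12.2 and 13.4 FPKM with DMSO and at 10.9 and 12.5 FPKM with risperidone. Hnrnpdl was higher in both risperidone libraries, whereas the treatments overlapped for Hnrnpd. Hnrnpdl rose by 0.41 ± 0.0494 on the log2 scale (adjusted p = 3.01e-05) but was not called on TPM (0.13, adjusted p = 0.0755), and Hnrnpd was at 0.038 ± 0.0701 (adjusted p = 0.655), with a negative sign on FPKM, TPM and library size scaling. Both genes overlap other RefSeq genes, Hnrnpdl with Enoph1 and Hnrnpd with Gm42127 and 4930524J08Rik.

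The F/H group binds runs of guanosine. Hnrnph1 stood at 102 and 107 FPKM with DMSO and at 57.7 and 59.1 FPKM with risperidone. Hnrnph2 stood at 65.1 and 69.4 FPKM with DMSO and at 53.0 and 54.8 FPKM with risperidone. Hnrnpf stood at 199 and 205 FPKM with DMSO and at 176 and 177 FPKM with risperidone. All 3 were lower in both risperidone libraries, Hnrnph1 the most, where 41.7% of all genes were lower without overlap in TMM-scaled CPM. Hnrnph1 fell by 0.74 ± 0.0476 (adjusted p = 3.35e-07), Hnrnph2 by 0.21 ± 0.0492 (adjusted p = 0.0031) and Hnrnpf by 0.12 ± 0.0461 (adjusted p = 0.0412) on the log2 scale. Without DMSO replicate 2, Hnrnph2 was not called (-0.17, adjusted p = 0.0875), and Hnrnpf was not called without either DMSO library. With these small changes Hnrnpf became the most abundant hnRNP transcript under risperidone, where it had held place 4 with DMSO. Hnrnph3, the shortest of the group, stood at 13.3 and 13.9 FPKM with DMSO and at 14.5 and 14.3 FPKM with risperidone. It was slightly higher with risperidone and not called (0.20 ± 0.0908, adjusted p = 0.0792), and on TPM its log2 fold change was -0.058. The counts of Hnrnpf and Hnrnph3, like those of Hnrnpab and Hnrnpu, held fractions in the deposited table, while those of the other 27 genes were whole. RSEM gives fractions where it shares a read out between genes, so these 4 values are less certain.

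Hnrnpm, which binds GU-rich motifs, fell about as far as Hnrnpa2b1, and which of them fell further depended on the setting (-1.41 and -1.48 on TPM). Hnrnpm (chr17:33646233-33685458) stood at 54.1 and 53.9 FPKM with DMSO and at 20.9 and 23.4 FPKM with risperidone. The replicates were close to each other and the treatments far apart. On the log2 scale Hnrnpm fell by 1.20 ± 0.0629 (adjusted p = 1.02e-07).

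Hnrnpk, which binds C-rich sequence in RNA and DNA, stood at 208 and 217 FPKM with DMSO and at 169 and 166 FPKM with risperidone. Hnrnpu, a chromatin-associated scaffold protein, stood at 233 and 238 FPKM with DMSO and at 154 and 161 FPKM with risperidone. Hnrnpll, a regulator of exon choice best known from lymphocytes, stood at 25.5 and 27.3 FPKM with DMSO and at 17.4 and 17.3 FPKM with risperidone. All 3 genes were lower with no overlap between treatments, as were 41.7% of all genes in TMM-scaled CPM. On the log2 scale Hnrnpk fell by 0.25 ± 0.0482 (adjusted p = 0.00083), Hnrnpu by 0.47 ± 0.053 (adjusted p = 1.84e-05) and Hnrnpll by 0.51 ± 0.0644 (adjusted p = 4.23e-05). Hnrnpl, which binds CA repeats, fell by 0.35 ± 0.0544 (adjusted p = 0.000193), and Hnrnpr, a relative of Syncrip, by 0.23 ± 0.0466 (adjusted p = 0.00131). Among the tested hnRNP genes beside those of the D group, Hnrnpk overlaps Rmi1, Hnrnpu Cox20, Hnrnpll Gm22215, Gpx4-ps1 and 4933407O12Rik, Hnrnpab Phykpl, Hnrnpf 4933440N22Rik and Hnrnph3 Rufy2. Whether the counting used strand is not given in the sources used here, so reads of overlapping genes may not be told apart.

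Of the relatives of Hnrnpu, 1 rose and 1 was not called. Hnrnpul1 stood at 41.4 and 40.4 FPKM with DMSO and at 48.5 and 49.6 FPKM with risperidone. Hnrnpul2 stood at 43.5 and 46.1 FPKM with DMSO and at 41.7 and 42.3 FPKM with risperidone. Hnrnpul1 was higher in both risperidone libraries, whereas Hnrnpul2 overlapped in scaled counts. The log2 fold change was 0.36 ± 0.046 (adjusted p = 4.77e-05) for Hnrnpul1, which was not called on TPM (0.12, adjusted p = 0.0927). It was -0.010 ± 0.0506 (adjusted p = 0.871) for Hnrnpul2, which was called lower on TPM (-0.23, adjusted p = 0.00543).

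The sum of the hnRNP genes was 1867 and 1926 FPKM with DMSO and 1430.0 and 1459 FPKM with risperidone, a log2 ratio of -0.39. It was -0.37 without Hnrnpu, the gene with the highest mean FPKM. Hnrnpu was left out for its level, and its mean went from 235 to 158 FPKM. The mean of Hnrnpa2b1 fell further, from 269 to 107 FPKM, and the sum was not taken without that gene. Across both families, 20 of the 30 tested genes kept their direction and their side of the threshold in all 16 other settings. These were Srsf5 and Hnrnpc, which rose, and 18 genes that fell. Of all tested genes, 14.3% were called higher and 22.6% lower in the reported test and in every other setting that tested them.

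**Figure D4:**
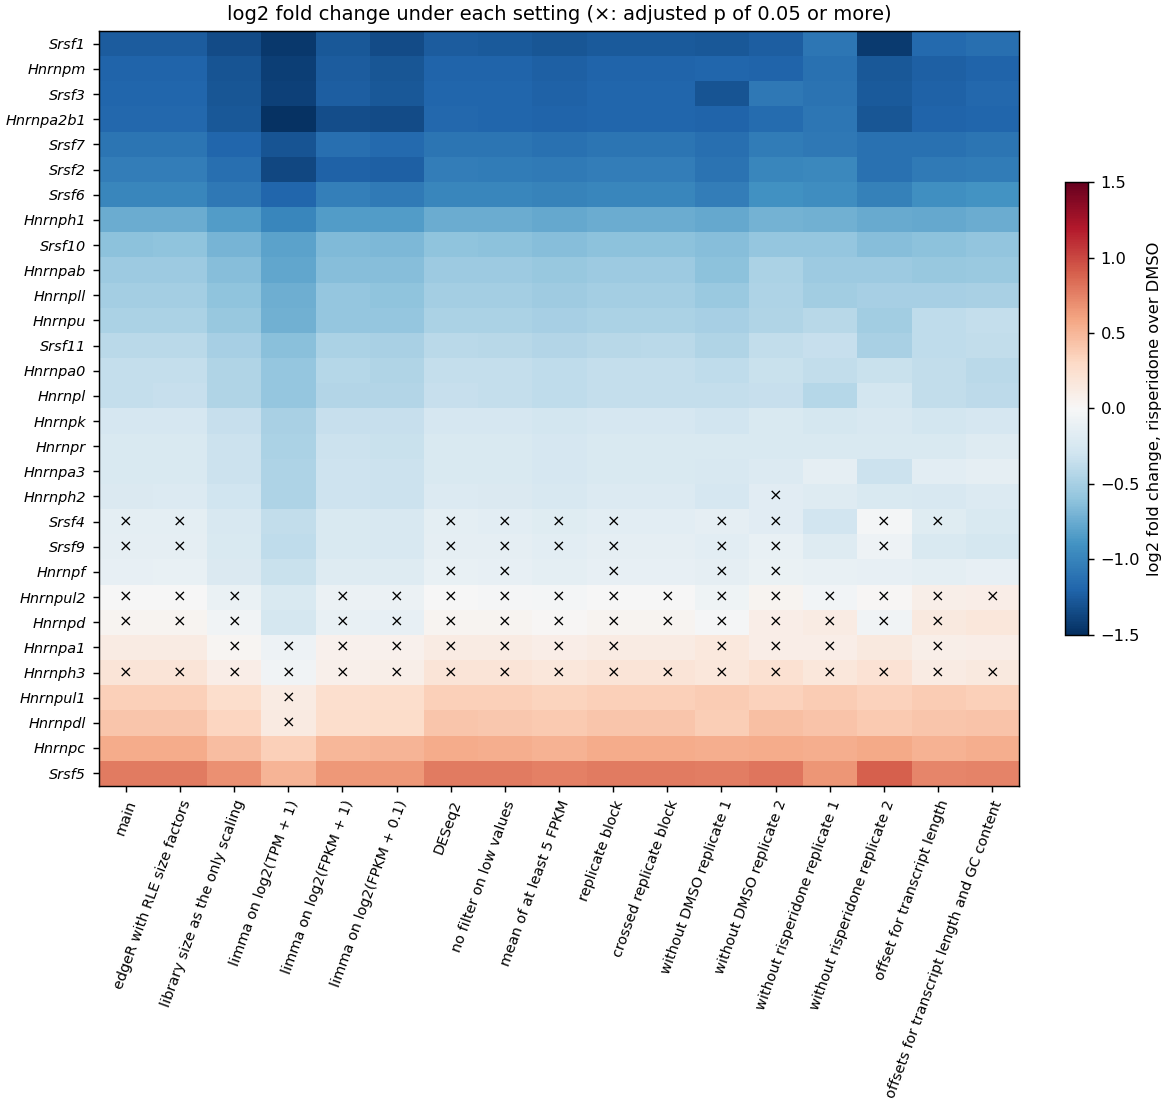
Log2 fold change of risperidone over DMSO (colour, from -1.5 in blue to 1.5 in red) for each tested SR and hnRNP gene (rows) in the reported test and the 16 other settings (columns). Crosses mark an adjusted p of 0.05 or more and gather in the rows of small change, while the rows from Srsf1 to Hnrnpa3 and those of Hnrnpc and Srsf5 hold none.

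Transcripts that end in nonsense-mediated decay or keep an intron are annotated for many of these genes. In GENCODE M21, 19 of the 31 genes, 9 of them SR genes, have at least 1 transcript of the nonsense-mediated decay class, against 30.4% of all tested genes that could be matched. A transcript with a retained intron is annotated for 22 of the 31, against 62.3% of all tested genes. The deposited values are sums over a gene, so the share of such transcripts in each library was not analysed here.

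The other genes of the splicing apparatus were read from lists of related genes. Of 159 genes listed, 153 were tested, 59 fell and 42 rose, against 32.2% and 32.1% of all genes, with a median log2 fold change of -0.034. The SR-like proteins, which carry serine-arginine stretches but other domains, had 12 genes that fell and 5 that rose of 19, against the same shares of all genes, with a median of -0.49. With library size scaling the same list had 12 lower and 3 higher (39.9% and 24.4% of all genes), and on TPM 14 lower and 2 higher (51.7% and 15.0%). The largest changes were those of Tra2a, an activator of exons with GAA repeats, at -1.54 ± 0.0771 (adjusted p = 7.79e-08), of Bclaf1 at -1.26 ± 0.0669 and of Acin1, a subunit of an assembly on the exon junction complex, at -0.97 ± 0.0494. Of these, Tra2a stood at 56.9 and 60.8 FPKM with DMSO and at 16.3 and 18.8 FPKM with risperidone. It was lower with no overlap, as were 41.7% of all genes in TMM-scaled CPM.

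The list of 44 other splicing regulators, hnRNPs with other symbols and arginine methyltransferases had 24 genes that fell and 9 that rose of 39 tested, against 32.2% and 32.1% of all genes, with a median of -0.24. On TPM this list had 27 lower and 4 higher, against 51.7% and 15.0% of all genes, with a median of -0.48 where that of all genes was -0.22. Rbmx, which is also called hnRNP G, stood at 15.5 and 16.4 FPKM with DMSO and at 5.65 and 6.46 FPKM with risperidone. It was lower in both risperidone libraries and its log2 fold change was -1.27 ± 0.0715 (adjusted p = 1.47e-07). Rbm4 followed at -1.18 ± 0.141, and Msi1, a translational regulator of stem cells, rose by 1.03 ± 0.209 from a level of 1.02 and 1.03 FPKM to 2.01 and 1.74 FPKM.

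The kinases, phosphatase and importins that act on SR proteins had 6 genes that fell and 5 that rose of 12 tested, against 32.2% and 32.1% of all genes. With library size scaling, on TPM and by DESeq2 there were 3 that rose, against 24.4%, 15.0% and 25.8% of all genes. In the same settings 6, 6 and 5 fell, against 39.9%, 51.7% and 25.9% of all genes. Clk1 and Clk4, kinases that phosphorylate SR proteins in the nucleus, rose by 0.54 ± 0.0549 and 0.51 ± 0.0736 on the log2 scale. Dyrk1b, a kinase related to them, fell by 0.61 ± 0.0719. Its fall on FPKM was smaller, from 6.37 and 5.82 FPKM with DMSO to 5.13 and 4.83 FPKM with risperidone. Clk1 stood at 42.2 and 44.1 FPKM with DMSO and at 58.7 and 58.3 FPKM with risperidone, both risperidone libraries being higher.

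The core spliceosome, whose proteins form the snRNPs and the catalytic complexes, had 22 genes that rose, 11 that fell and 35 that did not pass the test of 68, with a median of 0.065 against 0.00 for all genes. The share that rose was 32.4% against 32.1% of all genes, and the share that fell was 16.2% against 32.2%. On TPM, which shifts all genes together, 9 were called higher and 33 lower, against 15.0% and 51.7% of all genes, and the median was -0.16 against -0.22. With library size scaling 18 were called higher and 17 lower, against 24.4% and 39.9% of all genes. Snrpa1, a U2 snRNP protein, stood at 12.2 and 12.3 FPKM with DMSO and at 45.0 and 40.3 FPKM with risperidone. The treatments were far apart, with a log2 fold change of 1.91 ± 0.0771 (adjusted p = 2.09e-08). Snrnp48, a protein of the minor spliceosome, rose by 0.85 ± 0.0747, and Snrnp35, another of them, fell by 0.86 ± 0.277 (adjusted p = 0.0185) from 2.54 and 2.82 FPKM to 1.72 and 1.28 FPKM. The call for Snrnp35 was lost by DESeq2 (-0.86, adjusted p = 0.098) and by edgeR with no filter on low values (-0.86, adjusted p = 0.062). Its log2 fold change was -0.67 without risperidone replicate 2 and -0.66 without DMSO replicate 2.

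Of the 15 genes of nonsense-mediated decay and the exon junction complex, which act on the decay transcripts of SR genes, 6 fell and 1 rose, against 32.2% and 32.1% of all genes, with a median of -0.078. With library size scaling 10 were called lower and on TPM 11, against 39.9% and 51.7% of all genes. Smg5 fell by 0.53 ± 0.0545 and Upf1, the central helicase of the pathway, by 0.52 ± 0.0571 on the log2 scale. Smg1, the kinase that phosphorylates Upf1, fell by 0.31 ± 0.0717 (adjusted p = 0.0028), and with an offset for transcript length it was at -0.061 (adjusted p = 0.242). Without risperidone replicate 1 the Smg1 log2 fold change was -0.20. The gene that rose was Eif4a3, a core protein of the exon junction complex that was named after its value was seen, at 0.16 ± 0.0624 (adjusted p = 0.0439). With library size scaling, on TPM and by DESeq2 no gene of this list was called higher, against 24.4%, 15.0% and 25.8% of all genes. The nuclear RNAs Malat1, Neat1 and Meg3 were not analysed here.

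**Figure D5:**
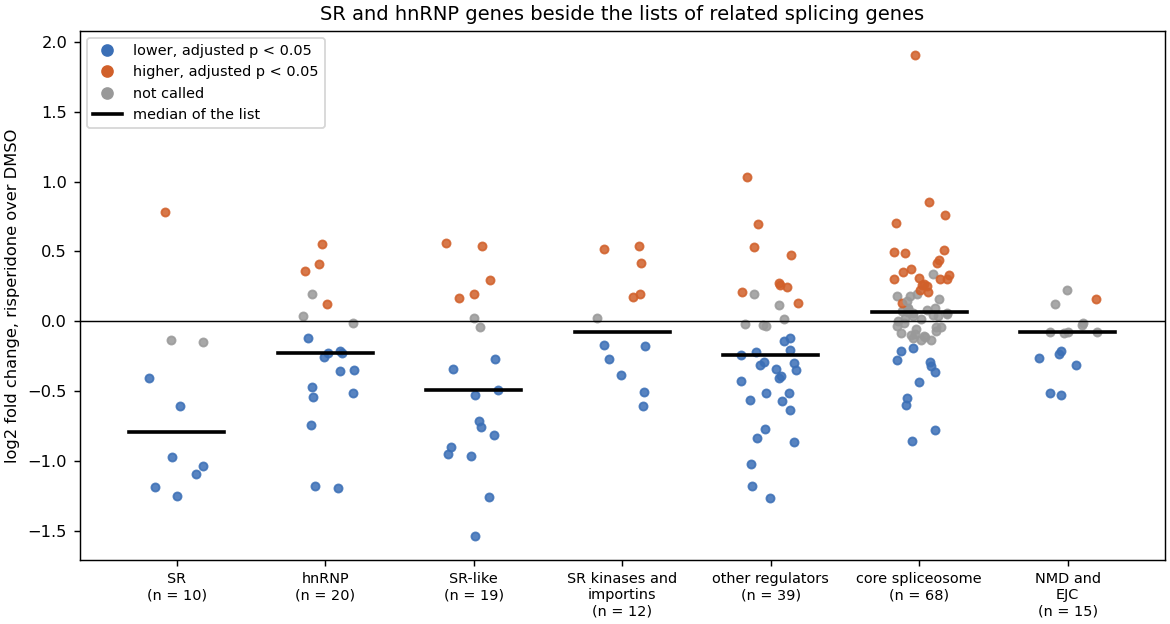
Log2 fold change of risperidone over DMSO for each tested gene of the SR and hnRNP families and of the 5 related lists, with a bar at the median of each list and the number of genes tested below its name. Blue points fell and orange points rose at an adjusted p under 0.05, and grey points were not called. The medians run from -0.79 for the SR genes and -0.49 for the SR-like genes to 0.065 (-0.16 on TPM) for the core spliceosome.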

How the data were processed

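The RNA was measured by mRNA sequencing on MGISEQ-2000, and the labels assign 2 libraries to each treatment. Reads were cleaned of adaptors, poly-N and low quality by the authors. The submitters' processing notes name Bowtie2, RSEM, DESeq2 and the genome build GRCm38.p6. Versions, the annotation and the use of strand are not given in the sources used here. The deposited table holds, as made by the authors, an estimated count, an FPKM and a TPM value for each gene and library. The expected counts were deposited without normalization and were rounded here, and the authors' FPKM and TPM values are scaled for length and for the library.

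The test was run with edgeR 4.0.16 in R 4.3.3 on the 10243 genes whose FPKM averaged 1 or more (TMM factors, quasi-likelihood F-test, two-sided, Benjamini-Hochberg adjustment over all of them, threshold 0.05), with no covariate. The test used counts, while levels are given as FPKM, whose sums over a library differ, so a ratio of FPKM can differ from the fold change. Standard errors were obtained from the log2 fold change and its F statistic. The biological coefficient of variation was 0.0468. The steps were run on simulated counts in which few genes changed, as many up as down, also with a length trend added. This cannot show how the scaling behaves when as many genes differ as were called here. Other settings were RLE factors, library size scaling, limma 3.58.1 on log2 of TPM + 1, of FPKM + 1 and of FPKM + 0.1, DESeq2 1.42.0, no filter, a mean of at least 5 FPKM, a replicate block, each library left out, an offset for transcript length and, added after the data were seen, a crossed block and combined offsets for transcript length and GC content.

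All SR and hnRNP genes are named. Values in every library are given for those called with a change of 0.5 or more on the log2 scale, for the 5 with the highest mean FPKM and for those whose call or direction changes in another setting. Of each related list, the 3 called genes with the largest absolute change are named. The genes and lists were chosen with earlier results of these data known. Gene ranges and windows are from RefSeq (GRCm38.p6), transcript classes from GENCODE M21. Figures were drawn with Python 3.11.15, pandas 2.3.3 and matplotlib 3.10.9.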

Additional observations from a re-analysis of the deposited data

How the results depend on the processing

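Calls for small changes depended on the setting. On log2(TPM + 1) 2 SR and hnRNP genes were higher and 24 lower, against 15.0% and 51.7% of all genes. When a change of 0.5 or more on the log2 scale was required 2 were higher and 11 lower, against 12.4% and 15.3% of all genes. For the related genes the counts were 18 higher and 91 lower on TPM (15.0% and 51.7% of all genes) and 12 higher and 28 lower at 0.5 (12.4% and 15.3%). The summed SR level changed by -0.475 (log2 ratio) on TPM, -0.427 in TMM-scaled CPM and -0.788 without Srsf5, and the summed hnRNP level by -0.536 on TPM and -0.319 in TMM-scaled CPM. The sign turned on TPM for Hnrnpa1 (-0.075), Hnrnph3 (-0.058) and Hnrnpd (-0.26, adjusted p = 0.0347). Hnrnpd also turned with library size scaling (-0.055) and limma on FPKM with pseudocounts of 1 (-0.117) and 0.1 (-0.126), and lay between -0.05 and 0.122 with 1 library left out. With the offsets for length and GC content it was called higher (0.165, adjusted p = 0.0373). Hnrnpul2 was called lower on TPM (-0.233, adjusted p = 0.00543), and turned with the offset for length (0.084) and with length and GC offsets (0.096), and lay between -0.059 and 0.04 with 1 library left out. The causes were not tested. With 1 library left out, 4 to 5 SR and hnRNP genes were higher and 18 to 22 lower, against 26.0% to 32.3% and 26.6% to 32.7% of all genes. The replicate numbers were shared by the treatments, but no label ties them to a batch, and with only 2 pairs the deviations of same-numbered libraries correlated at -0.113 over 8052 genes, so the libraries were not treated as paired. With the replicate block 4 genes were higher and 19 lower, and Hnrnpa1 (adjusted p = 0.0691) and Hnrnpf (adjusted p = 0.1) lost their calls, against 32.1% and 32.4% of all genes. The crossed pairing of replicates, as a block, gave 5 higher and 22 lower, against 33.9% and 34.4%. A gene with a mean under 1 FPKM, such as Srsf12, could not be followed at this depth.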
